A study of Mus musculus with 18 samples.

Results

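The genes described here make the machinery that copies chromosomal DNA and the deoxynucleotides it uses, 42 genes in all, measured in cultured mouse pre-B cells. They were taken from a list of gene symbols, and a gene was tested where its probe was detected, with a detection p below 0.01, on at least 3 of the 18 arrays. Where several probes passed, the one with the highest mean signal stood for the gene. Of the 42 genes, 39 had a probe and 34 were tested, among 8446 genes tested in the whole series. Gins1, Gins2 and Rfc3 had no probe. Orc1, Gmnn, Pola1, Prim1 and Pole2 had a probe detected on 0 of 18 arrays, and are given no level. The gene nearest to the threshold from below was Prim1, whose lowest detection p was 0.0113, and the gene nearest to it from above was Cdc6, detected on 10 arrays. All 34 were detected on all 9 arrays of cells in IL-7 and 28 on all 18 arrays. Cdc6, Pole, Rrm2, Mcm10, Pclaf and Pcna were detected on only some arrays of withdrawn cells, namely 1, 3, 4, 6, 6 and 7 of 9 in that order. Cdc6, on 1 such array, passed only with the help of its IL-7 arrays. Counts over the 34 genes describe those that passed.

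The series compared 3 genotypes, each in IL-7 and after IL-7 withdrawal, with 3 arrays a group. The Art:Nfkb2-labelled cells were Art-/-:Nfkb2-/-:IgH:Bcl2, lacking Artemis, a nuclease of DNA end joining, and the NF-kB2 protein. The Art-labelled cells were Art-/-:IgH:Bcl2, and the Rag-labelled cells were Rag-/-:IgH:Bcl2, lacking RAG1, which cuts DNA at antigen receptor loci. Every group carried an immunoglobulin heavy chain transgene as well as Bcl2, whose product keeps cells alive without IL-7. Bone marrow of mice aged 4 to 6 weeks, of mixed C57BL/6 and BALB/c strain, was grown for 7 to 10 days with 5 ng/mL IL-7. The sources used here do not name the promoters of the transgenes. Withdrawn cells had spent 2 days without IL-7, and cells in IL-7 are day 0. No group was kept in IL-7 for those 2 days, so withdrawal and time in culture cannot be told apart. The design text describes 3 independent cultures per genotype, and arrays of a genotype with the same replicate number were read as 1 culture. One label of the double mutant leaves the knockout mark off Nfkb2, and group names here come from the titles. The comparisons ask what changes when the cytokine that drives pre-B cell growth is taken away, and whether RAG breaks that stay unrepaired without Artemis, and NF-kB2, alter that change.

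Arrays of a group correlated at 0.979 to 0.993 (Pearson's r across the tested genes), and 10091 to 10894 of 25697 probes were detected per array. Of 15 listed pre-B cell markers, 11 passed the detection filter, and all 11 were detected in every group. The filter already asks for detection, so this is a weak check. On withdrawal 4, 3 and 1 of the 11 were called lower and 2, 1 and 3 higher in Art:Nfkb2-labelled, Art-labelled and Rag-labelled cells. The shares of all genes were 17.9%, 18.8% and 19.4% lower and 22.7%, 26.2% and 25% higher. Vpreb1, part of the surrogate light chain, fell most, with log2 differences of -4.09, -2.89 and -1.70. After withdrawal 5 of the 11 were lower in Art:Nfkb2-labelled and 5 in Art-labelled than in Rag-labelled cells, with median differences of -0.89 and -0.77, and 0 were higher. Over all genes 13% and 8.89% were lower there, and 12.6% and 10.1% higher. The part of these markers in the differences below was not tested. Of 17 myeloid markers, 11 were tested. Of these, 7, 3 and 7 were detected in withdrawn Art:Nfkb2-labelled, Art-labelled and Rag-labelled cells, and 6, 2 and 5 fell on withdrawal. Their summed signal on the log2 scale was 11.27 to 11.88 in withdrawn against 12.50 to 13.23 in IL-7 Art:Nfkb2-labelled cells, 10.36 to 10.57 against 11.32 to 11.49 in Art-labelled cells, and 9.52 to 11.56 against 11.15 to 13.01 in Rag-labelled cells. Myeloid signal moved the same way as the replication genes on withdrawal, and its part in their change was not tested. Of 10 T cell markers 3 were tested, and of 7 NK cell markers 2. Their summed log2 signals ran from 10.78 to 12.18 and from 10.63 to 12.08 over the arrays, and their part was not tested. Rag1 was brightest on Rag-labelled arrays and Nfkb2 was not lowest on Art:Nfkb2-labelled arrays. Probe positions are not given, so these levels check no label, and the groups are called by their labels throughout. The Y-linked gene Eif2s3y was detected on both arrays of Art:Nfkb2-labelled culture 3, on 0 of 6 Art-labelled arrays and on 6 of 6 Rag-labelled arrays. Sex and genotype therefore cannot be told apart between Art-labelled and Rag-labelled cells, and the Art:Nfkb2-labelled cultures were mixed in this respect. Counts without that culture are given where they bear on a result.

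To copy a chromosome, a cell first loads the MCM helicase onto origins in G1, then activates it at the start of S phase with CDC45, GINS and MCM10. Polymerase alpha and primase lay down primers, and polymerases delta and epsilon extend them, held on DNA by the PCNA clamp that the RFC complex loads, while RPA coats the single strands and FEN1 and DNA ligase 1 join the lagging-strand fragments. Deoxynucleotides come from ribonucleotide reductase, thymidylate synthase, dUTPase and thymidine kinase. Many of these genes are transcribed through E2F factors around the start of S phase, and large pre-B cells cycle in response to IL-7 before they leave the cycle to rearrange light chain genes.

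RefSeq promoter windows (build GRCm38.p6), which run from 250 bases before to 50 bases after the annotated start, were available for 33 of the 42 genes. An E2F core, TTCCCGC or TTGGCGC on either strand, stood in the windows of 18 of these 33 genes (54.5%), against 2105 of 27025 genes with a window (7.79%). A CCAAT box, CCAAT on either strand, stood in 21 of the 33 (63.6%), against 11096 of the 27025 (41.1%). Read on the other strand, the CCAAT box can share letters with TTGGCGC, so that one stretch may count for both. Among the tested genes with a window, 14 of 28 held the core. Some genes had more than 1 window, and a gene was counted if any held it. By role, over the 33 genes, the core was found in 4 of 5 MCM ring genes and in 4 of 6 genes of the clamp and its loader. It was found in 0 of 2 helicase activators and in 1 of 5 genes of nucleotide supply. A match describes letters, not a bound site. Windows without the core included those of Mcm10, Rrm2, Tyms and Cdc45, which fell deeply on withdrawal. Windows with it included those of Rfc1 and Pold1, which fell little. Whether the core goes with the size of the change was not tested. Shown here are 4 windows that hold the core, from genes with large changes on withdrawal, and that of Tk1, which holds neither motif and whose signal departed most from the others. They are Mcm5 at chr8:75109259-75109558, plus strand, Mcm6 at chr1:128359656-128359955, minus strand, Cdc6 at chr11:98907901-98908200, plus strand, Pclaf at chr9:65890073-65890372, plus strand, and Tk1 at chr11:117825965-117826264, minus strand. Each is written 5′ to 3′ on the strand of its gene, with the E2F core, or its complement read on this strand, in capitals.
Mcm5: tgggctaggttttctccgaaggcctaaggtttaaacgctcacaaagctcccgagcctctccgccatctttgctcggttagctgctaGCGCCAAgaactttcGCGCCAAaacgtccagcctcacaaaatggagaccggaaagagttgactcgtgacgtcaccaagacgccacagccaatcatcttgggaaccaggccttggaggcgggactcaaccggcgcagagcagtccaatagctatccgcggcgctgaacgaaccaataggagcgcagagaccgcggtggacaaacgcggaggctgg
Mcm6: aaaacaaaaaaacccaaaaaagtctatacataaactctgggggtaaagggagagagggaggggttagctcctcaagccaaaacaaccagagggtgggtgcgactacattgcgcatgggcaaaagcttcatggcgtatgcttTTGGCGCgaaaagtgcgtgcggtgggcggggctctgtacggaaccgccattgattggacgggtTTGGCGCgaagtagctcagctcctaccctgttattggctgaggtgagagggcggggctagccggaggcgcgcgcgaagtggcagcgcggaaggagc
Cdc6: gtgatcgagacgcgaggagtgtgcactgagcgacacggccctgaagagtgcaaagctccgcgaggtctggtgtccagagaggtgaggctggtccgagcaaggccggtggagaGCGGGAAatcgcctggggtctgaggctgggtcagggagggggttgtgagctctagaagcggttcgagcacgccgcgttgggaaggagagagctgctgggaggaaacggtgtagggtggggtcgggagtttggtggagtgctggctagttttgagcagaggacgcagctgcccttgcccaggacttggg
Pclaf: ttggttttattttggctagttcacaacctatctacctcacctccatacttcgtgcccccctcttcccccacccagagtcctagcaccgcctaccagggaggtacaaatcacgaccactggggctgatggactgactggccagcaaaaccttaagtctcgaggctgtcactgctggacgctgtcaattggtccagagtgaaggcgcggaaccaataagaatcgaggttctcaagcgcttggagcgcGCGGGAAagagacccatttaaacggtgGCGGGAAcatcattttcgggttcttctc
Tk1: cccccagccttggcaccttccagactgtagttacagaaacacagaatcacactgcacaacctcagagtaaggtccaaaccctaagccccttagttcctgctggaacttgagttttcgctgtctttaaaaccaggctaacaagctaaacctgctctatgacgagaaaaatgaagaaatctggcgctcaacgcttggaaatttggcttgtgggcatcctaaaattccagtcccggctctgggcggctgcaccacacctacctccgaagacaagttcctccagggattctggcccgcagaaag
Mcm5, Mcm6 and Pclaf held 2 cores each and Cdc6 held 1.

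Most of the 34 tested genes were called lower 2 days after IL-7 was withdrawn. Among Art:Nfkb2-labelled samples 30 of the 34 genes were called lower and 0 higher, where the call is an adjusted p under 0.05 in limma's moderated test over all 8446 genes. Of all genes, 17.9% were called lower and 22.7% higher in that comparison. In Art-labelled cells 32 of the 34 were called lower and 0 higher, against 18.8% and 26.2% of all genes. In Rag-labelled cells all 34 were called lower and 0 higher, against 19.4% and 25% of all genes. No gene of the list had a positive difference in any genotype, and so 0 were higher at an unadjusted p under 0.05. The median log2 difference over the 34, withdrawn minus IL-7, was -1.47, -1.67 and -1.83 in Art:Nfkb2-labelled, Art-labelled and Rag-labelled cells, beside medians of 0.09, 0.11 and 0.10 over all genes. The medians were the same with undetected genes set at their bound. At least 2-fold lower and called were 22, 25 and 26 genes of the list, against 587, 612 and 616 of all 8446 genes. The 3 comparisons share no array. Leaving out any array or culture kept the counts at 27 to 30, 31 to 33 and 31 to 34, and the lowest count in Art:Nfkb2-labelled cells was that without culture 3. RNA was measured in bulk, so fewer cells in S phase and less of each RNA per cell cannot be told apart.

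**Figure D1:**
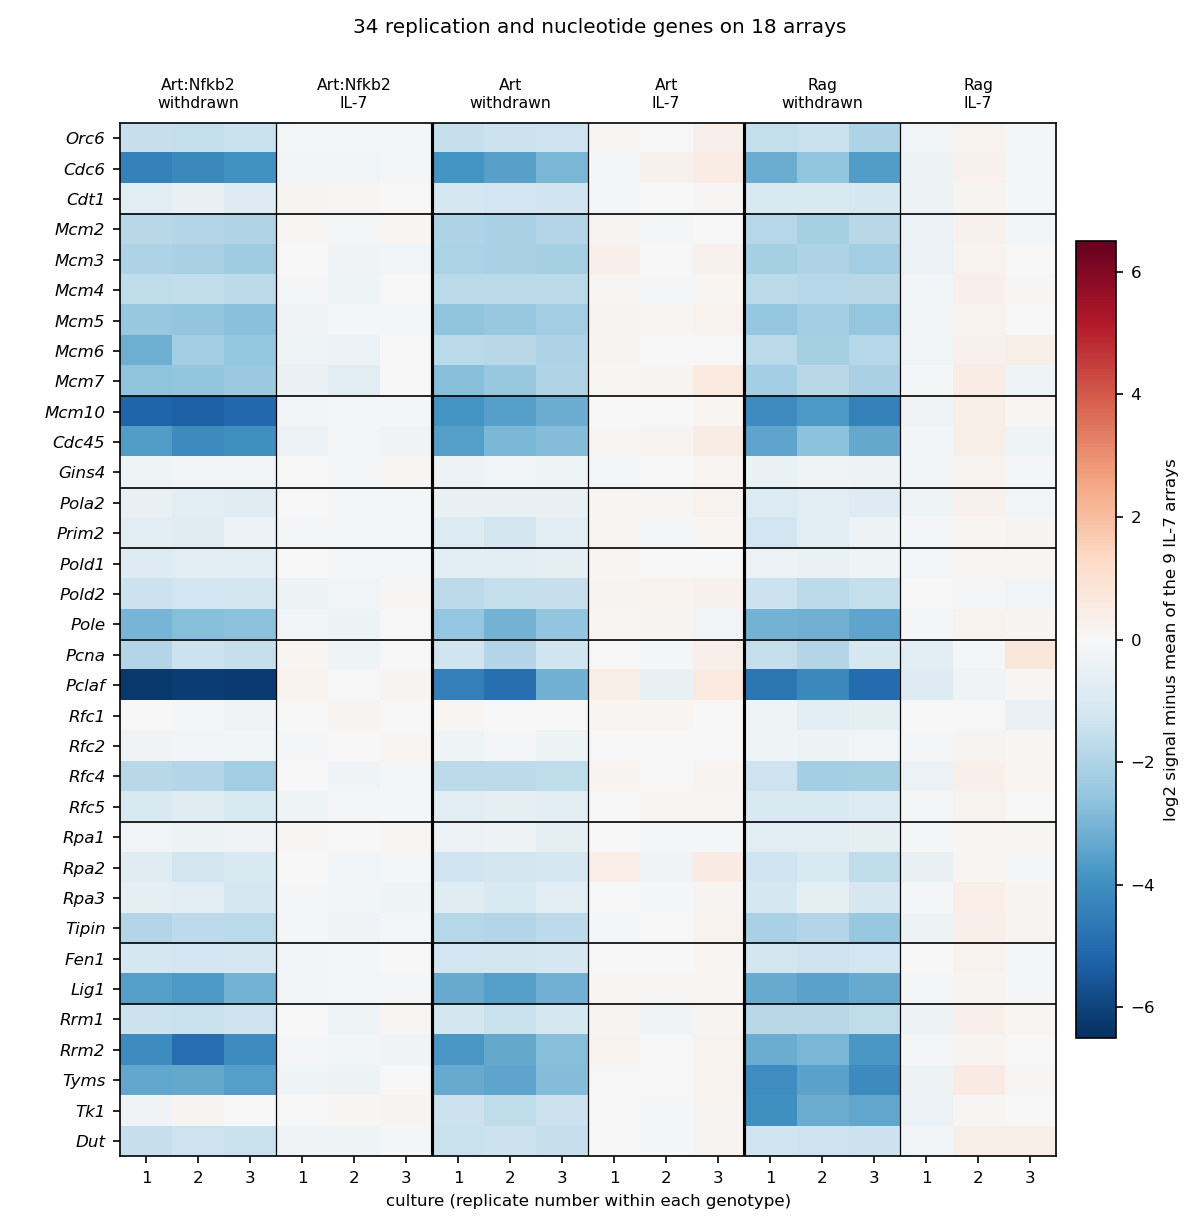
Log2 signal of the 34 tested genes (down, grouped by role) on the 18 arrays (across), as the difference from each gene's mean over the 9 IL-7 arrays, blue for lower. Withdrawn arrays were lower than IL-7 arrays for most genes in each genotype. Tk1 stayed near its IL-7 signal in Art:Nfkb2-labelled cells.

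The mean log2 signal over the 34 genes was 9.17 to 9.20 on withdrawn against 10.95 to 11.08 on IL-7 arrays of Art:Nfkb2-labelled cells. It was 9.28 to 9.50 against 11.11 to 11.31 in Art-labelled cells, and 9.11 to 9.27 against 10.88 to 11.34 in Rag-labelled cells. The withdrawn and IL-7 arrays did not overlap in any genotype. Single genes are given by role, with log2 signals of cultures 1, 2 and 3 in that order.

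Origin licensing factors load the helicase. Cdc6, the ATPase that recruits CDT1 and the MCM ring to origins, fell most of the 3 tested. After withdrawal its log2 signal was 4.89, 5.07 and 5.35 for Art:Nfkb2-labelled cells, 5.39, 5.74 and 6.31 for Art-labelled cells and 6.06, 6.71 and 5.64 for Rag-labelled cells. In IL-7 it was 9.10, 9.09 and 9.22 for Art:Nfkb2-labelled cells, 9.20, 9.54 and 9.76 for Art-labelled cells and 8.95, 9.55 and 9.14 for Rag-labelled cells. The groups did not overlap in any genotype, and Cdc6 was not detected on the withdrawn arrays of Art:Nfkb2-labelled and Art-labelled cells. It was therefore at least 7.19-fold lower (adjusted p = 8.99e-09) and at least 8.86-fold lower (adjusted p = 2.6e-08) there. In Rag-labelled cells, where 1 of 3 withdrawn arrays detected it, its difference was -3.08 ± 0.26 (adjusted p = 2.21e-07). Cdt1, which brings the MCM ring to origins and is removed by proteolysis once S phase starts, fell least of the 3. Its withdrawn signal was 11.03, 11.21 and 10.87 for Art:Nfkb2-labelled cells, 10.55, 10.46 and 10.42 for Art-labelled cells and 10.74, 10.72 and 10.55 for Rag-labelled cells. Its IL-7 signal was 11.90, 11.79 and 11.68 for Art:Nfkb2-labelled cells, 11.61, 11.74 and 11.80 for Art-labelled cells and 11.41, 11.89 and 11.62 for Rag-labelled cells. All withdrawn arrays lay below all IL-7 arrays, with log2 differences of -0.75 ± 0.12 (adjusted p = 0.00016) in Art:Nfkb2-labelled cells, -1.24 ± 0.12 (adjusted p = 8.46e-07) in Art-labelled cells and -0.97 ± 0.12 (adjusted p = 1.42e-05) in Rag-labelled cells. Orc6, a subunit of the origin recognition complex, had differences of -1.40, -1.54 and -1.65 in Art:Nfkb2-labelled, Art-labelled and Rag-labelled cells, all called.

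The 6 subunits of the MCM ring, the motor that unwinds DNA at the fork, all fell in all 3 genotypes, within a range of -1.53 to -2.71. The largest mean change was that of Mcm5. After withdrawal Mcm5 had a log2 signal of 10.74, 10.67 and 10.48 for Art:Nfkb2-labelled cells, 10.58, 10.74 and 10.93 for Art-labelled cells and 10.69, 10.98 and 10.68 for Rag-labelled cells. Its signal in IL-7 was 13, 13.09 and 13.09 for Art:Nfkb2-labelled cells, 13.38, 13.28 and 13.42 for Art-labelled cells and 13.02, 13.42 and 13.17 for Rag-labelled cells. Every withdrawn value lay below every IL-7 value, with differences of -2.43 ± 0.12 (adjusted p = 4.37e-10) in Art:Nfkb2-labelled cells, -2.61 ± 0.12 (adjusted p = 3.89e-10) in Art-labelled cells and -2.42 ± 0.12 (adjusted p = 7.33e-10) in Rag-labelled cells. Mcm4, the subunit with the smallest mean change, had a withdrawn signal of 11.63, 11.66 and 11.60 for Art:Nfkb2-labelled cells, 11.51, 11.51 and 11.51 for Art-labelled cells and 11.53, 11.44 and 11.47 for Rag-labelled cells. In IL-7 it had 13.20, 13.02 and 13.28 for Art:Nfkb2-labelled cells, 13.36, 13.20 and 13.41 for Art-labelled cells and 13.08, 13.61 and 13.36 for Rag-labelled cells. Its differences were -1.53 ± 0.11 (adjusted p = 3.32e-08) in Art:Nfkb2-labelled cells, -1.81 ± 0.11 (adjusted p = 4.86e-09) in Art-labelled cells and -1.87 ± 0.11 (adjusted p = 4.31e-09) in Rag-labelled cells. Its 2 other probes were detected on no withdrawn array and on 1 or 2 of the 3 IL-7 arrays of each genotype, and are given no difference. Mcm6 had a withdrawn signal of 8.79, 9.69 and 9.42 for Art:Nfkb2-labelled cells, 10.21, 10.13 and 9.94 for Art-labelled cells and 10.22, 9.79 and 10.07 for Rag-labelled cells. Its IL-7 signal was 11.65, 11.57 and 11.92 for Art:Nfkb2-labelled cells, 12.13, 11.94 and 11.97 for Art-labelled cells and 11.79, 12.23 and 12.34 for Rag-labelled cells. The differences were -2.41 ± 0.20 (adjusted p = 1.43e-07) in Art:Nfkb2-labelled cells, -1.92 ± 0.20 (adjusted p = 1.77e-06) in Art-labelled cells and -2.09 ± 0.20 (adjusted p = 7.72e-07) in Rag-labelled cells, and culture 1 of the Art:Nfkb2-labelled cells was the lowest withdrawn array. Mcm2, Mcm3 and Mcm7 fell likewise, with log2 differences of -1.92, -2.04 and -1.86 for Mcm2, -1.99, -2.31 and -2.09 for Mcm3 and -2.15, -2.71 and -2.11 for Mcm7 in Art:Nfkb2-labelled, Art-labelled and Rag-labelled cells.

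Helicase activation split. Mcm10, which helps fire the loaded helicase, and Cdc45, which forms the active helicase together with the MCM ring and GINS, were among the deepest falls, while Gins4, a GINS subunit, hardly moved. The withdrawn log2 signal of Mcm10 was 5.96, 5.87 and 6.03 for Art:Nfkb2-labelled cells, 7.26, 7.57 and 7.92 for Art-labelled cells and 7.04, 7.45 and 6.77 for Rag-labelled cells. In IL-7 Mcm10 read 10.97, 11.02 and 11.01 for Art:Nfkb2-labelled cells, 11.19, 11.17 and 11.30 for Art-labelled cells and 10.92, 11.54 and 11.27 for Rag-labelled cells. Mcm10 was not detected on withdrawn arrays of Art:Nfkb2-labelled cells, where it was at least 26.2-fold lower (adjusted p = 2.57e-11), and its differences were -3.64 ± 0.18 (adjusted p = 6.26e-10) in Art-labelled and -4.16 ± 0.18 (adjusted p = 2.78e-10) in Rag-labelled cells. Cdc45 read 6.88, 6.38 and 6.54 for Art:Nfkb2-labelled cells, 6.94, 7.53 and 7.72 for Art-labelled cells and 7.11, 7.87 and 7.20 for Rag-labelled cells after withdrawal. In IL-7 Cdc45 read 10.12, 10.41 and 10.32 for Art:Nfkb2-labelled cells, 10.68, 10.70 and 10.99 for Art-labelled cells and 10.36, 10.89 and 10.27 for Rag-labelled cells. No withdrawn array overlapped the IL-7 arrays, and the differences were -3.68 ± 0.23 (adjusted p = 6.38e-09) in Art:Nfkb2-labelled cells, -3.39 ± 0.23 (adjusted p = 1.65e-08) in Art-labelled cells and -3.12 ± 0.23 (adjusted p = 5.18e-08) in Rag-labelled cells. Gins4 read 11.43, 11.53 and 11.54 for Art:Nfkb2-labelled cells, 11.34, 11.55 and 11.41 for Art-labelled cells and 11.27, 11.48 and 11.40 for Rag-labelled cells after withdrawal. In IL-7 it read 11.73, 11.60 and 11.81 for Art:Nfkb2-labelled cells, 11.62, 11.67 and 11.84 for Art-labelled cells and 11.53, 11.95 and 11.65 for Rag-labelled cells. Its differences of -0.22 ± 0.11 (adjusted p = 0.132) in Art:Nfkb2-labelled cells, -0.27 ± 0.11 (adjusted p = 0.0524) in Art-labelled cells and -0.33 ± 0.11 (adjusted p = 0.0244) in Rag-labelled cells passed the test only in Rag-labelled cells, although the withdrawn arrays lay below the IL-7 arrays in each genotype. With culture as a block the Art-labelled difference of Gins4 was also called (adjusted p = 0.0262), and the Rag-labelled call was lost with median scaling and in 4 of 9 leave-outs.

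The 2 tested primer-making genes had small falls. Prim2, the large primase subunit, read 9.05, 8.96 and 9.38 for Art:Nfkb2-labelled cells, 8.88, 8.58 and 9.06 for Art-labelled cells and 8.53, 9.05 and 9.42 for Rag-labelled cells after withdrawal. Its IL-7 signal was 9.64, 9.65 and 9.64 for Art:Nfkb2-labelled cells, 9.86, 9.69 and 9.90 for Art-labelled cells and 9.62, 9.91 and 9.95 for Rag-labelled cells. The differences were -0.51 ± 0.19 (adjusted p = 0.04) in Art:Nfkb2-labelled cells, -0.97 ± 0.19 (adjusted p = 0.000617) in Art-labelled cells and -0.83 ± 0.19 (adjusted p = 0.00232) in Rag-labelled cells, and the call in Art:Nfkb2-labelled cells was lost in 8 of 9 leave-outs. Pola2, the B subunit of polymerase alpha, read 10.21, 9.99 and 9.92 for Art:Nfkb2-labelled cells, 10.19, 10.20 and 10.22 for Art-labelled cells and 9.82, 9.99 and 9.87 for Rag-labelled cells after withdrawal. In IL-7 its signal was 10.66, 10.58 and 10.57 for Art:Nfkb2-labelled cells, 10.82, 10.79 and 10.91 for Art-labelled cells and 10.42, 10.95 and 10.51 for Rag-labelled cells. All 9 withdrawn arrays lay below those in IL-7 of the same genotype, with differences of -0.57 ± 0.12 (adjusted p = 0.0014) in Art:Nfkb2-labelled cells, -0.63 ± 0.12 (adjusted p = 0.00047) in Art-labelled cells and -0.74 ± 0.12 (adjusted p = 0.000151) in Rag-labelled cells.

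Of the replicative polymerases, Pole, the catalytic subunit of leading-strand polymerase epsilon, fell most. Pole read 6.04, 6.27 and 6.40 for Art:Nfkb2-labelled cells, 6.52, 5.96 and 6.51 for Art-labelled cells and 5.96, 5.92 and 5.64 for Rag-labelled cells after withdrawal. In IL-7 it read 8.90, 8.72 and 9.05 for Art:Nfkb2-labelled cells, 9.17, 9.25 and 8.88 for Art-labelled cells and 8.98, 9.30 and 9.23 for Rag-labelled cells. It was not detected on withdrawn Rag-labelled arrays, where it was at least 7.13-fold lower (adjusted p = 6.63e-10), and differed by -2.65 ± 0.16 (adjusted p = 4.47e-09) in Art:Nfkb2-labelled and -2.77 ± 0.16 (adjusted p = 2.98e-09) in Art-labelled cells. Pold1, the catalytic subunit of polymerase delta, which also serves DNA repair, fell least. Its withdrawn signal was 12.00, 12.11 and 12.11 for Art:Nfkb2-labelled cells, 12.19, 12.19 and 12.21 for Art-labelled cells and 12.48, 12.40 and 12.58 for Rag-labelled cells. Its signal in IL-7 was 12.82, 12.80 and 12.74 for Art:Nfkb2-labelled cells, 12.93, 12.88 and 12.83 for Art-labelled cells and 12.76, 12.91 and 12.99 for Rag-labelled cells. The differences were -0.72 ± 0.08 (adjusted p = 4.14e-06) in Art:Nfkb2-labelled cells, -0.68 ± 0.08 (adjusted p = 5.36e-06) in Art-labelled cells and -0.40 ± 0.08 (adjusted p = 0.000772) in Rag-labelled cells, small beside those of Pole but without overlap. Pold2, the second subunit of polymerase delta, had differences of -1.13, -1.83 and -1.45 in Art:Nfkb2-labelled, Art-labelled and Rag-labelled cells.

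The clamp and its loader held both the deepest and the smallest differences of the list. Pclaf, a small protein that binds PCNA, had the deepest falls of the 34. After withdrawal Pclaf read 5.77, 5.86 and 5.81 for Art:Nfkb2-labelled cells, 7.58, 7.16 and 8.91 for Art-labelled cells and 7.27, 7.84 and 7.03 for Rag-labelled cells. In IL-7 Pclaf read 12.26, 12.04 and 12.23 for Art:Nfkb2-labelled cells, 12.43, 11.54 and 12.67 for Art-labelled cells and 11.19, 11.78 and 12.16 for Rag-labelled cells. It was not detected on withdrawn Art:Nfkb2-labelled arrays, where it was at least 59.1-fold lower (adjusted p = 3.81e-09), and its differences were -4.33 ± 0.38 (adjusted p = 2.96e-07) in Art-labelled and -4.33 ± 0.38 (adjusted p = 3.41e-07) in Rag-labelled cells. Pcna, the clamp itself, had differences of -1.54, -1.55 and -1.52, in Art:Nfkb2-labelled, Art-labelled and Rag-labelled cells, from a probe that was detected on 7 of the 9 withdrawn arrays. The loader subunits differed from each other. Rfc1, the large subunit particular to the PCNA loader, read 11.57, 11.47 and 11.36 for Art:Nfkb2-labelled cells, 11.75, 11.60 and 11.64 for Art-labelled cells and 11.33, 10.90 and 10.99 for Rag-labelled cells after withdrawal. In IL-7 Rfc1 read 11.58, 11.79 and 11.60 for Art:Nfkb2-labelled cells, 11.71, 11.72 and 11.64 for Art-labelled cells and 11.61, 11.62 and 11.19 for Rag-labelled cells. The arrays overlapped in Art-labelled and Rag-labelled cells, and the differences were -0.19 ± 0.13 (adjusted p = 0.25) in Art:Nfkb2-labelled cells, -0.03 ± 0.13 (adjusted p = 0.889) in Art-labelled cells and -0.40 ± 0.13 (adjusted p = 0.0182) in Rag-labelled cells, called only in Rag-labelled cells. Rfc2, a small subunit shared by the alternative loaders, read 12.05, 12.10 and 12.10 for Art:Nfkb2-labelled cells, 12.00, 12.15 and 11.95 for Art-labelled cells and 12.01, 11.94 and 12.10 for Rag-labelled cells after withdrawal. Its IL-7 signal was 12.14, 12.25 and 12.41 for Art:Nfkb2-labelled cells, 12.25, 12.28 and 12.28 for Art-labelled cells and 12.15, 12.45 and 12.35 for Rag-labelled cells. The differences were -0.18 ± 0.09 (adjusted p = 0.138) in Art:Nfkb2-labelled cells, -0.24 ± 0.09 (adjusted p = 0.0497) in Art-labelled cells and -0.30 ± 0.09 (adjusted p = 0.0175) in Rag-labelled cells, and that in Art-labelled cells was not called with culture as a block (adjusted p = 0.0505). Rfc4 and Rfc5, small subunits too, fell in each genotype, with differences of -1.86, -1.78 and -1.92 for Rfc4 and -0.79, -0.80 and -1.04 for Rfc5 in Art:Nfkb2-labelled, Art-labelled and Rag-labelled cells.

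Single-strand binding and fork protection showed moderate falls. Tipin, which with TIMELESS stabilises stalled forks, fell most of its 4 genes. Tipin read 10.44, 10.68 and 10.64 for Art:Nfkb2-labelled cells, 10.52, 10.44 and 10.68 for Art-labelled cells and 10.24, 10.44 and 9.92 for Rag-labelled cells after withdrawal. In IL-7 Tipin read 12.28, 12.15 and 12.29 for Art:Nfkb2-labelled cells, 12.31, 12.37 and 12.59 for Art-labelled cells and 12.05, 12.68 and 12.55 for Rag-labelled cells. Withdrawn and IL-7 arrays stood well apart, with differences of -1.66 ± 0.16 (adjusted p = 7.2e-07) in Art:Nfkb2-labelled cells, -1.88 ± 0.16 (adjusted p = 1.49e-07) in Art-labelled cells and -2.22 ± 0.16 (adjusted p = 2.7e-08) in Rag-labelled cells. Rpa1, the large subunit of the single-strand binding complex, which also works in repair, fell least. Its signal after withdrawal was 13.02, 12.88 and 12.98 for Art:Nfkb2-labelled cells, 12.83, 12.87 and 12.62 for Art-labelled cells and 12.50, 12.49 and 12.64 for Rag-labelled cells. Its signal in IL-7 was 13.30, 13.16 and 13.33 for Art:Nfkb2-labelled cells, 13.17, 13.15 and 13.08 for Art-labelled cells and 13.06, 13.33 and 13.29 for Rag-labelled cells. The differences were -0.30 ± 0.09 (adjusted p = 0.0178) in Art:Nfkb2-labelled cells, -0.36 ± 0.09 (adjusted p = 0.00593) in Art-labelled cells and -0.68 ± 0.09 (adjusted p = 4.16e-05) in Rag-labelled cells. Its partners Rpa2 and Rpa3 had differences of -0.89, -1.43 and -1.18 and of -0.63, -0.86 and -1.12 in Art:Nfkb2-labelled, Art-labelled and Rag-labelled cells, all called.

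Both genes of Okazaki fragment maturation fell in each genotype. Lig1, the ligase that seals the fragments, read 7.75, 7.56 and 8.25 for Art:Nfkb2-labelled cells, 8.05, 7.73 and 8.16 for Art-labelled cells and 8.05, 7.82 and 8.03 for Rag-labelled cells after withdrawal. In IL-7 Lig1 read 11.15, 11.24 and 11.22 for Art:Nfkb2-labelled cells, 11.45, 11.36 and 11.45 for Art-labelled cells and 11.16, 11.47 and 11.24 for Rag-labelled cells. Withdrawn and IL-7 arrays stood far apart in each genotype, with differences of -3.35 ± 0.15 (adjusted p = 1.82e-10) in Art:Nfkb2-labelled cells, -3.44 ± 0.15 (adjusted p = 3.48e-10) in Art-labelled cells and -3.32 ± 0.15 (adjusted p = 4.86e-10) in Rag-labelled cells. Its other probes, in the groups where they were not detected after withdrawal, were at least 3.94-fold to at least 7.96-fold lower. Fen1, the flap nuclease, read 11.86, 11.75 and 11.81 for Art:Nfkb2-labelled cells, 11.72, 11.76 and 11.87 for Art-labelled cells and 11.78, 11.64 and 11.74 for Rag-labelled cells after withdrawal. In IL-7 Fen1 read 12.82, 12.83 and 13.01 for Art:Nfkb2-labelled cells, 12.99, 12.95 and 13.11 for Art-labelled cells and 12.99, 13.18 and 12.90 for Rag-labelled cells. Its differences were -1.08 ± 0.09 (adjusted p = 1.68e-07) in Art:Nfkb2-labelled cells, -1.24 ± 0.09 (adjusted p = 3.55e-08) in Art-labelled cells and -1.30 ± 0.09 (adjusted p = 2.4e-08) in Rag-labelled cells.

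Among the enzymes of nucleotide supply, Rrm2, the regulated small subunit of ribonucleotide reductase, and Tyms, thymidylate synthase, fell deeply. Rrm2 read 5.75, 4.91 and 5.74 for Art:Nfkb2-labelled cells, 6.06, 6.55 and 7.10 for Art-labelled cells and 6.65, 6.90 and 6.07 for Rag-labelled cells after withdrawal. In IL-7 it read 9.70, 9.69 and 9.63 for Art:Nfkb2-labelled cells, 10.07, 9.87 and 10.08 for Art-labelled cells and 9.73, 10.05 and 9.86 for Rag-labelled cells. Rrm2 was not detected on withdrawn Art:Nfkb2-labelled arrays, where it was at least 10.4-fold lower (adjusted p = 5.46e-09), and differed by -3.44 ± 0.26 (adjusted p = 5.39e-08) in Art-labelled and -3.34 ± 0.26 (adjusted p = 8.36e-08) in Rag-labelled cells. Tyms read 7.12, 7.17 and 6.92 for Art:Nfkb2-labelled cells, 7.23, 7.08 and 7.68 for Art-labelled cells and 6.45, 7.01 and 6.39 for Rag-labelled cells after withdrawal. In IL-7 Tyms read 10.24, 10.18 and 10.49 for Art:Nfkb2-labelled cells, 10.53, 10.54 and 10.73 for Art-labelled cells and 10.18, 11.04 and 10.60 for Rag-labelled cells. All withdrawn arrays lay below the IL-7 arrays, with differences of -3.23 ± 0.21 (adjusted p = 8.97e-09) in Art:Nfkb2-labelled cells, -3.27 ± 0.21 (adjusted p = 7.68e-09) in Art-labelled cells and -3.99 ± 0.21 (adjusted p = 1.08e-09) in Rag-labelled cells. Rrm1, the large reductase subunit, which is long-lived in cycling cells, read 10.50, 10.43 and 10.54 for Art:Nfkb2-labelled cells, 10.68, 10.42 and 10.73 for Art-labelled cells and 10.11, 10.10 and 10.23 for Rag-labelled cells after withdrawal. In IL-7 Rrm1 read 11.85, 11.60 and 12.00 for Art:Nfkb2-labelled cells, 12.04, 11.67 and 12.04 for Art-labelled cells and 11.58, 12.21 and 12.00 for Rag-labelled cells. The differences were -1.33 ± 0.15 (adjusted p = 6.97e-06) in Art:Nfkb2-labelled cells, -1.31 ± 0.15 (adjusted p = 6.45e-06) in Art-labelled cells and -1.79 ± 0.15 (adjusted p = 2.47e-07) in Rag-labelled cells. Dut, which removes dUTP and supplies dUMP, read 6.87, 7.03 and 6.95 for Art:Nfkb2-labelled cells, 6.92, 6.98 and 6.89 for Art-labelled cells and 7.09, 7.04 and 6.99 for Rag-labelled cells after withdrawal. In IL-7 Dut read 8.14, 8.12 and 8.27 for Art:Nfkb2-labelled cells, 8.34, 8.30 and 8.55 for Art-labelled cells and 8.23, 8.79 and 8.75 for Rag-labelled cells. No arrays overlapped, with differences of -1.23 ± 0.12 (adjusted p = 1.51e-06) in Art:Nfkb2-labelled cells, -1.47 ± 0.12 (adjusted p = 1.7e-07) in Art-labelled cells and -1.55 ± 0.12 (adjusted p = 1.05e-07) in Rag-labelled cells.

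**Figure D2:**
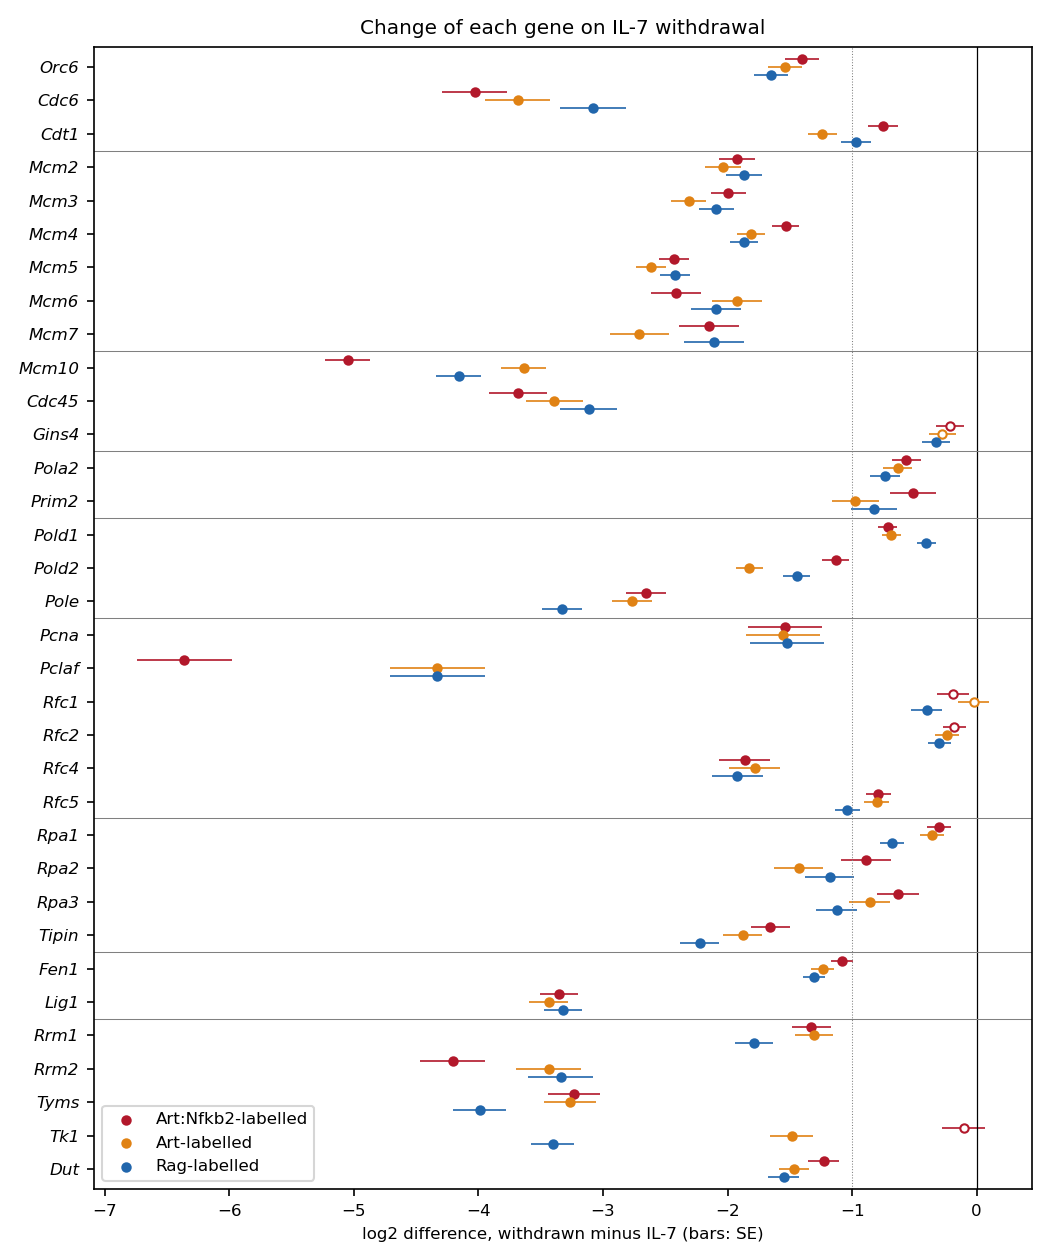
Log2 difference, withdrawn minus IL-7, of each tested gene (down, by role) in the 3 genotypes, with bars of 1 SE, filled points where the call was made and open points where it was not, and a dotted line at a 2-fold fall. Values run from near 0 for Rfc1, Rfc2 and Gins4 to below -4 for Pclaf, and the genotypes are farthest apart for Tk1. Fitted values of genes not detected in a withdrawn group (Cdc6, Mcm10, Pclaf and Rrm2 in Art:Nfkb2-labelled, Cdc6 in Art-labelled, Pole in Rag-labelled cells) have only a bound.

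Tk1, thymidine kinase 1 of the salvage pathway, was the exception. Its brightest probe read 10.45, 10.83 and 10.68 for Art:Nfkb2-labelled cells, 9.26, 9.03 and 9.29 for Art-labelled cells and 6.68, 7.46 and 7.28 for Rag-labelled cells after withdrawal. In IL-7 the same probe read 10.70, 10.74 and 10.83 for Art:Nfkb2-labelled cells, 10.64, 10.58 and 10.82 for Art-labelled cells and 10.26, 10.76 and 10.62 for Rag-labelled cells. The genotypes overlapped in IL-7 and formed 3 separate levels after withdrawal, with no overlap between any pair. The withdrawal differences were -0.11 ± 0.18 (adjusted p = 0.666) in Art:Nfkb2-labelled cells, -1.49 ± 0.18 (adjusted p = 7.09e-06) in Art-labelled cells and -3.40 ± 0.18 (adjusted p = 9.38e-10) in Rag-labelled cells. After withdrawal Tk1 was 2.74-fold higher in Art:Nfkb2-labelled than in Art-labelled cells with a log2 difference of 1.46 ± 0.18 (adjusted p = 8.66e-05), and 4.15-fold higher in Art-labelled than in Rag-labelled cells with 2.05 ± 0.18 (adjusted p = 9.56e-07). Against Rag-labelled cells, Art:Nfkb2-labelled cells were 11.4-fold higher with 3.51 ± 0.18 (adjusted p = 1.97e-09). These comparisons share arrays with each other.

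The withdrawal responses of Tk1 were tested against each other as well. The response in Art-labelled cells was higher than that in Rag-labelled cells by 1.92 ± 0.25 (adjusted p = 0.00257) on the log2 scale, where Tk1 was the only gene of the list called and 1.27% of all genes were called in either direction. It was higher in Art:Nfkb2-labelled than in Rag-labelled cells by 3.30 ± 0.25 (adjusted p = 7.69e-06), again the only call of the list, against 1.94% of all genes. Between Art:Nfkb2-labelled and Art-labelled cells the responses differed by 1.38 ± 0.25 (adjusted p = 0.0355), 1 of 2 calls of the list, against 0.213% of all genes. The calls against Rag-labelled cells held in every alternative run with the brightest probe. The call between Art:Nfkb2-labelled and Art-labelled cells was lost in each of 18 leave-outs, with adjusted p-values up to 0.261, and was kept with culture as a block (adjusted p = 0.00336).

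Tk1 had 2 further probes that passed, and the 3 did not agree on withdrawal. The middle probe averaged 7.71 ± 0.17 after withdrawal and 7.65 ± 0.26 in IL-7 in Art:Nfkb2-labelled cells (SD, n = 3 each), 6.55 ± 0.36 and 7.51 ± 0.38 in Art-labelled cells, and 5.20 ± 0.34 and 7.29 ± 0.17 in Rag-labelled cells, where it was not detected after withdrawal. The dimmest probe averaged 8.67 ± 0.15 after withdrawal and 6.56 ± 0.01 in IL-7 in Art:Nfkb2-labelled cells, 7.03 ± 0.04 and 5.66 ± 0.05 for Art-labelled cells, and 5.23 ± 0.32 and 4.99 ± 0.07 in Rag-labelled cells. It was detected on Art:Nfkb2-labelled arrays and on withdrawn Art-labelled arrays, and on no other. On withdrawal it rose by 2.11 ± 0.13 in Art:Nfkb2-labelled cells (adjusted p = 4.12e-09). In Art-labelled cells, where it was not detected in IL-7, it was at least 1.81-fold higher after withdrawal (adjusted p = 5.17e-07), whereas the brightest probe fell. In Rag-labelled cells it was not detected in either state and has no direction. After withdrawal all 3 probes were higher in Art:Nfkb2-labelled than in Art-labelled cells, and the middle and dimmest were not detected in Rag-labelled cells. Against Art-labelled cells, the Art:Nfkb2-labelled cells were higher by 1.16 ± 0.22 with the middle probe (adjusted p = 0.00645) and by 1.63 ± 0.13 with the dimmest (adjusted p = 1.03e-06). The Art-labelled cells were at least 1.16-fold higher than Rag-labelled cells with the middle probe, detected on 2 of 3 Art-labelled arrays (adjusted p = 0.000442), and at least 1.62-fold higher with the dimmest (adjusted p = 1.65e-07). These fits took each of 11356 passing probes as a feature, and were added after the data were seen. In IL-7 the dimmest probe was at least 1.30-fold higher in Art:Nfkb2-labelled than in Art-labelled cells, where it was not detected (adjusted p = 0.000775), and the difference of the brightest did not pass (0.08 ± 0.18, adjusted p = 0.906).

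**Figure D3:**
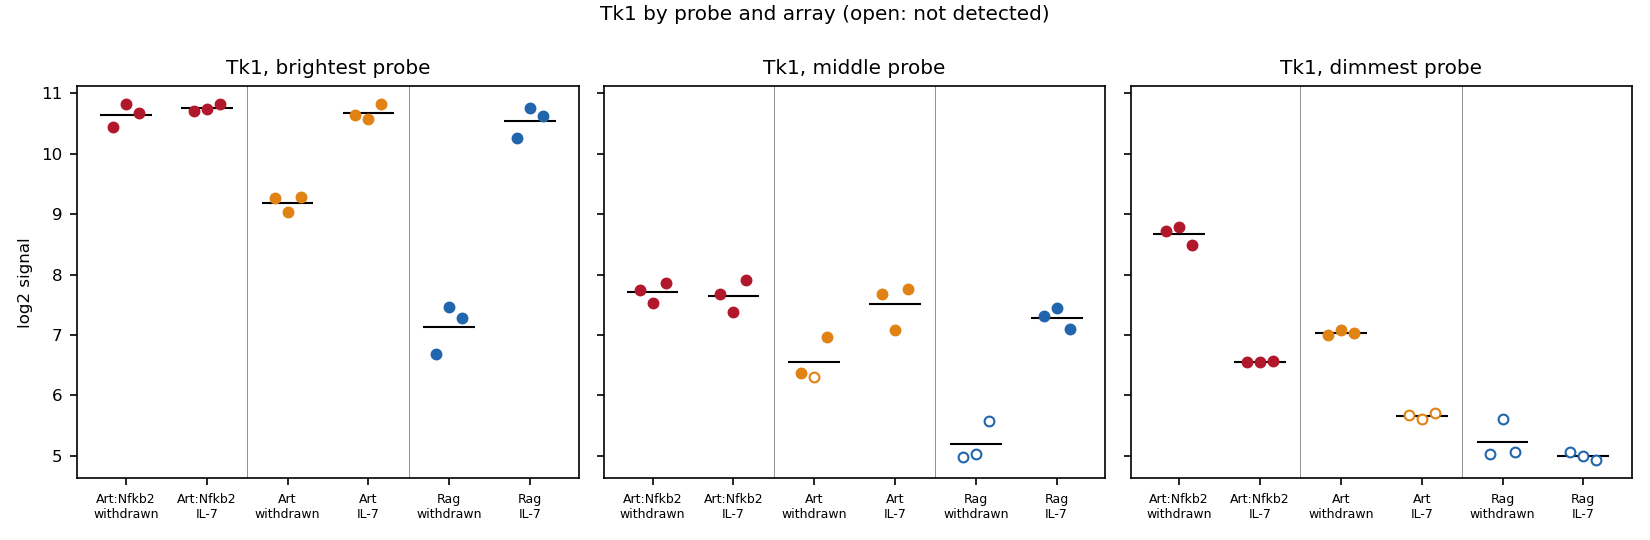
Log2 signal of the 3 Tk1 probes on each array (points) with group means (lines), withdrawn left of IL-7 within each genotype, and open points where the probe was not detected. The brightest probe ranges from 6.68 in withdrawn Rag-labelled cells to 10.83, and all 3 probes are highest among withdrawn cells in Art:Nfkb2-labelled cells, with the middle and dimmest not detected in withdrawn Rag-labelled cells.

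Of the mature B cell markers tested, only Fcer2a was called higher in each comparison of withdrawn cells where Tk1 was. Of 6 such markers 3 were tested. After withdrawal 1 was called higher in Art:Nfkb2-labelled than in Art-labelled cells, against 1.78% of all genes. Against Rag-labelled cells 2 were called higher in Art:Nfkb2-labelled and 1 in Art-labelled cells, where 12.6% and 10.1% of all genes were. In these comparisons 0 were called lower. Fcer2a, the CD23 receptor of mature B cells, read 8.19, 8.62 and 8.87 for Art:Nfkb2-labelled cells, 7.08, 7.64 and 7.67 for Art-labelled cells and 5.56, 5.21 and 5.62 for Rag-labelled cells after withdrawal. It was higher in Art:Nfkb2-labelled than in Art-labelled cells by 1.09 ± 0.18 (adjusted p = 0.00124). Against withdrawn Rag-labelled cells, where it was not detected, it was higher by at least 4.68-fold (adjusted p = 8.33e-09) in Art:Nfkb2-labelled and at least 2.19-fold (adjusted p = 1.29e-06) in Art-labelled cells. The summed log2 signal of the 3 markers after withdrawal was 11.63 to 12.08 in Art:Nfkb2-labelled, 11.49 to 11.82 in Art-labelled and 11.35 to 12.40 in Rag-labelled cells, and so overlapped. Their part in the Tk1 differences was not tested.

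The genes on either side of Tk1 in the reference gene order, Syngr2, a synaptogyrin, and Afmid, arylformamidase of tryptophan breakdown, were looked at after Tk1 was seen. Afmid rose on withdrawal, by 1.20 ± 0.13 (adjusted p = 4.84e-06) in Art:Nfkb2-labelled, 1.34 ± 0.13 (adjusted p = 1.22e-06) in Art-labelled and 0.76 ± 0.13 (adjusted p = 0.00033) in Rag-labelled cells. After withdrawal Afmid was higher in Art:Nfkb2-labelled than in Rag-labelled cells by 1.42 ± 0.13 (adjusted p = 1.24e-06) and in Art-labelled than in Rag-labelled cells by 1.04 ± 0.13 (adjusted p = 4.86e-05). In IL-7 Afmid was also higher in Art:Nfkb2-labelled than in Rag-labelled cells, by 0.99 ± 0.13 (adjusted p = 0.000144), and than in Art-labelled cells, by 0.52 ± 0.13 (adjusted p = 0.0374). Its response did not pass between genotypes (lowest adjusted p = 0.181, Art-labelled minus Rag-labelled). Syngr2 rose in Art:Nfkb2-labelled cells by 0.91 ± 0.18 (adjusted p = 0.000942), with 0.37 ± 0.18 for Art-labelled and 0.20 ± 0.18 for Rag-labelled cells, and its response differences were not called. After withdrawal Syngr2 was higher in Art:Nfkb2-labelled than in Rag-labelled cells by 0.78 ± 0.18 (adjusted p = 0.00455), and the other pairs were not called.

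In IL-7 at most 1 gene of the list was called between any pair of genotypes. Between Art:Nfkb2-labelled and Art-labelled cells 0 of 34 genes were called by limma, against 4.39% of all genes, with 6 lower and 0 higher at an unadjusted p under 0.05. Of the 34 differences 30 were negative and 4 positive, with a median of -0.21 beside 0.01 over all genes. The shares of all genes with a negative difference, or under that unadjusted p, were not counted, so these numbers have no baseline. Between Art-labelled and Rag-labelled cells 0 were called, against 6.46% of all genes, with 0 lower and 1 higher unadjusted. Between Art:Nfkb2-labelled and Rag-labelled cells 1 was called, against 11.4% of all genes. That gene was Dut, lower with a log2 difference of -0.42 ± 0.12 (adjusted p = 0.0403), but its arrays overlapped and the call was not made with culture as a block (adjusted p = 0.0598) nor in 10 of 12 leave-outs.

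After withdrawal a few genes differed between Art:Nfkb2-labelled and Art-labelled cells. Lower were 4 of 34, against 2.21% of all genes, and higher were 2, against 1.78%. Mcm10, Pclaf and Rrm2 were not detected in the withdrawn Art:Nfkb2-labelled cells and were at least 2.45-fold (adjusted p = 4.47e-05), 3.01-fold (adjusted p = 0.00423) and 1.22-fold (adjusted p = 0.0223) lower there. Mcm6 was lower, with a difference of -0.79 ± 0.20 (adjusted p = 0.0334), which was not called with culture as a block (adjusted p = 0.0506), in 3 of the 8 other settings or in 10 of 12 leave-outs. Cdt1 was higher by 0.56 ± 0.12 (adjusted p = 0.0123), the only gene of the list beside Tk1 that was higher. In each of these genes the withdrawn arrays of the 2 genotypes did not overlap. The calls of Cdt1 and Rrm2 were each lost in 6 of 12 leave-outs, while those of Mcm10, Pclaf and Tk1 were kept in each. Without culture 3 of the Art:Nfkb2-labelled cells 3 were lower and 2 higher, and without the withdrawn array of Art-labelled culture 3, or either of Art-labelled cultures 2 and 3, 3 genes were called in all. The other probes of Mcm10 and Rrm2 were detected on no withdrawn array and give no direction here. A second probe of Mcm6 gave -0.75 ± 0.16 (adjusted p = 0.0127) and the third -2.30 ± 1.08 (adjusted p = 0.37).

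**Figure D4:**
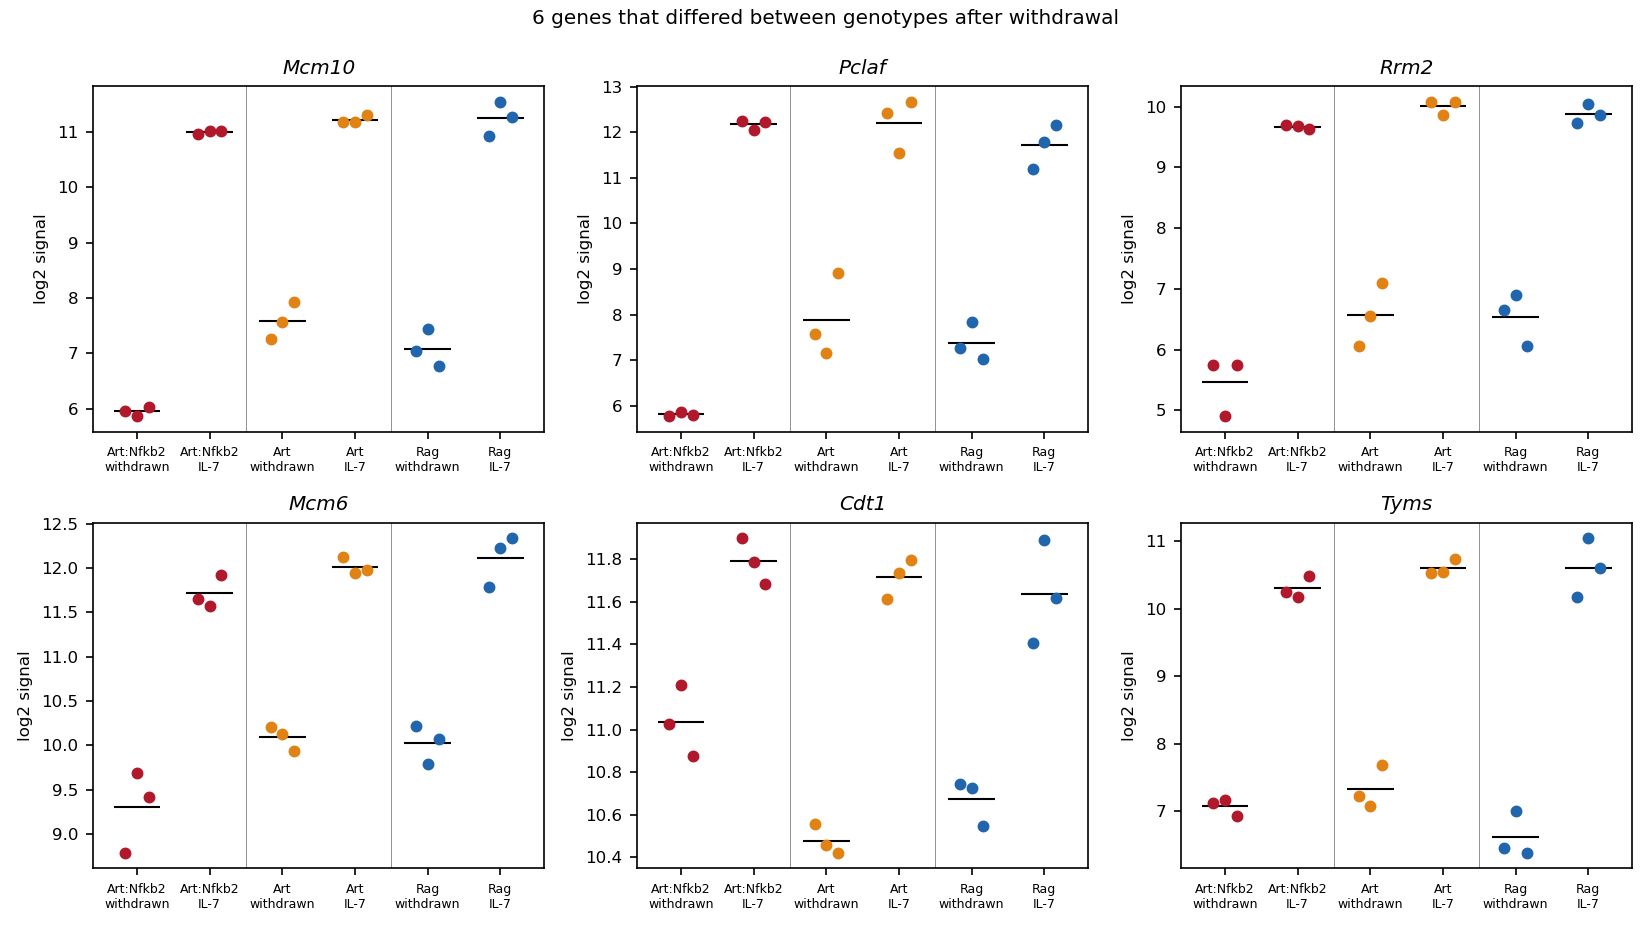
Log2 signal on each array (points) and group means (lines) of 6 genes that differed between genotypes after withdrawal, withdrawn left of IL-7 within each genotype, each panel with its own scale. Mcm10, Pclaf, Rrm2 and Mcm6 were lowest in withdrawn Art:Nfkb2-labelled cells, Cdt1 was highest there among withdrawn cells, and Tyms was lowest in withdrawn Rag-labelled cells.

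Mcm10 was also the one gene beside Tk1 whose response was called different, by -1.42 ± 0.26 (adjusted p = 0.0355) between Art:Nfkb2-labelled and Art-labelled cells. The value rests on arrays on which Mcm10 was not detected, and the call was lost in 17 of 18 leave-outs and in 5 of 9 other settings. Its other probe was detected on no withdrawn array. With culture as a block 4 genes of the list were called in this comparison, Tk1 and Mcm10 with Pclaf at -2.03 ± 0.34 (adjusted p = 0.0266) and Pold2 at 0.69 ± 0.12 (adjusted p = 0.031). Against Rag-labelled cells the block gave 5 response differences in place of 1, Tk1 with Cdc6 at -0.95 ± 0.19 (adjusted p = 0.0187), Mcm10 at -0.89 ± 0.18 (adjusted p = 0.0209), Pclaf at -2.03 ± 0.34 (adjusted p = 0.00869) and Tyms at 0.76 ± 0.19 (adjusted p = 0.0453). The fitted values of Pclaf, Cdc6 and Mcm10 rest on withdrawn arrays without detection. The shares of all genes given above come from the fit without the block, so the block counts have no baseline here.

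Set against Rag-labelled cells after withdrawal, Art-labelled cells had 1 gene lower and 5 higher, against 8.89% and 10.1% of all genes. Pold1 was lower, with a difference of -0.29 ± 0.08 (adjusted p = 0.0163). Rfc1 was higher by 0.59 ± 0.13 (adjusted p = 0.00336), Rrm1 by 0.47 ± 0.15 (adjusted p = 0.0442), Tyms by 0.71 ± 0.21 (adjusted p = 0.0246) and Tk1 by the amount above. The withdrawn arrays of the 2 genotypes did not overlap for these genes. Of 12 leave-outs, 9 lost the call of Rrm1, 6 that of Tyms and 6 that of Pold1, while those of Rfc1 and Tk1 were kept in each. Pole was called higher too (adjusted p = 0.0447) but was not detected in the Rag-labelled cells, has no bound above 1-fold, and was not called with culture as a block (adjusted p = 0.0706). The other probe of Tyms was detected on no withdrawn array and gives no direction here. With median scaling 0 were lower and 3 higher. Without the withdrawn array of Rag-labelled culture 1 or 3, or of Art-labelled culture 3, or without all of Art-labelled culture 1 or 3 or Rag-labelled culture 3, 2 or 3 genes were called.

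Art:Nfkb2-labelled cells had 7 genes lower and 4 higher than Rag-labelled cells after withdrawal, against 13% and 12.6% of all genes. Differences of lower genes were -0.72 ± 0.20 (adjusted p = 0.0133) for Mcm6, -0.79 ± 0.23 (adjusted p = 0.0191) for Cdc45 and, for Pold1, -0.41 ± 0.08 (adjusted p = 0.00102). Not detected in the Art:Nfkb2-labelled cells, Mcm10 was at least 1.74-fold, Pclaf 2.13-fold and Rrm2 1.19-fold lower, and Cdc6 was called lower (adjusted p = 0.00817) with no bound above 1-fold. Higher beside Tk1 were Cdt1 by 0.37 ± 0.12 (adjusted p = 0.0347), Rfc1 by 0.39 ± 0.13 (adjusted p = 0.0319) and Rpa1 by 0.41 ± 0.09 (adjusted p = 0.00403). Of 12 leave-outs, 8 lost the call of Rfc1, 6 that of Cdt1, 6 that of Cdc45, 3 that of Mcm6 and 1 that of Cdc6. The other calls were kept in each leave-out. Among other settings, median scaling lost the calls of Rpa1, Cdt1 and Rfc1, and no background correction those of Pclaf and Cdc45. The run with no filter lost Cdt1 and Rfc1, and the mean of probes lost Mcm6. Without culture 3 of the Art:Nfkb2-labelled cells 6 were lower and 4 higher, and without culture 1 of these cells 7 genes were called in all.

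Genes of the same processes outside the list were read for context, from lists chosen with earlier results known. Of 27 tested further replication genes, 15, 17 and 16 fell in Art:Nfkb2-labelled, Art-labelled and Rag-labelled cells, and 2, 2 and 1 rose, with median differences of -1.03, -1.30 and -1.15. In these comparisons 17.9%, 18.8% and 19.4% of all genes were called lower, and 22.7%, 26.2% and 25% higher. Clspn, a checkpoint mediator at forks, and Chaf1a, a chromatin assembly factor subunit, fell most. Clspn was at least 30.2-fold lower (adjusted p = 2.49e-10) in Art:Nfkb2-labelled cells, where it was not detected after withdrawal, and had log2 differences of -4.24 (adjusted p = 5.27e-09) in Art-labelled and -4.15 (adjusted p = 8.62e-09) in Rag-labelled cells. Chaf1a had differences of -4.20, -3.89 and -3.63. Asf1a, a histone chaperone, rose by 1.06, 1.31 and 0.81, and Donson, which helps assemble the active helicase, rose by 0.77 and 0.48 in Art:Nfkb2-labelled and Art-labelled cells, with 0.05 (adjusted p = 0.739) in Rag-labelled cells. Asf1b, the paralog of Asf1a that is tied to proliferation and was picked after its values were seen, fell, with differences of -2.75, -2.82 and -2.78.

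Of 34 further nucleotide genes, 17, 18 and 18 fell and 5, 4 and 5 rose in the same order of genotypes. Over all genes 17.9%, 18.8% and 19.4% fell and 22.7%, 26.2% and 25% rose. Shmt1, which makes the folate that thymidylate synthase uses, was at least 3.81-fold lower (adjusted p = 4.17e-07) in Art:Nfkb2-labelled and at least 4.72-fold lower (adjusted p = 2.89e-08) in Rag-labelled cells, where it was not detected after withdrawal, and differed by -2.49 (adjusted p = 3.42e-07) in Art-labelled cells. Dctd, dCMP deaminase, was not detected after withdrawal and was at least 2.68-fold lower (adjusted p = 5.87e-06), at least 2.71-fold lower (adjusted p = 1.1e-06) and at least 3.36-fold lower (adjusted p = 5.13e-07) in the same order. Higher in all 3 genotypes were 4 genes. Samhd1, a dNTP hydrolase, rose by 0.60, 1.14 and 0.86 and Dguok, the mitochondrial deoxyguanosine kinase, by 0.67, 0.61 and 0.81. Rrm2b, the p53-inducible reductase subunit, rose by 0.47, 0.63 and 0.71 and Tk2, the mitochondrial thymidine kinase, by 0.41, 0.68 and 0.41, both named after their values were seen. Thus Rrm2 and Rrm2b, which take the same place in ribonucleotide reductase, moved in opposite directions in each genotype.

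Of 18 E2F and G1/S regulators, 12, 13 and 12 fell and 2, 4 and 3 rose. Beside these, 17.9%, 18.8% and 19.4% of all genes fell and 22.7%, 26.2% and 25% rose. Mybl2, a transcription factor of proliferating cells, had differences of -3.23, -2.65 and -2.13, and Ccne1, cyclin E1, not detected after withdrawal, was at least 1.9-fold lower (adjusted p = 6.04e-10), at least 2.17-fold lower (adjusted p = 4.4e-10) and at least 2.04-fold lower (adjusted p = 9.91e-10) in the same order. Rbl2, the p130 pocket protein of resting cells, was not detected in IL-7 in any genotype nor after withdrawal in Rag-labelled cells. It was at least 1.15-fold higher (adjusted p = 0.00737) in Art:Nfkb2-labelled and at least 1.15-fold higher (adjusted p = 0.0262) in Art-labelled cells. Tfdp2, an E2F partner, rose by 0.39 and 0.63 in Art-labelled and Rag-labelled cells, with 0.36 (adjusted p = 0.0618) in Art:Nfkb2-labelled cells.

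All 20 tested mitosis genes fell in each genotype, with median differences of -3.96, -2.89 and -2.81 in Art:Nfkb2-labelled, Art-labelled and Rag-labelled cells, against -1.47, -1.67 and -1.83 for the 34 replication and nucleotide genes. With undetected genes at their bound the mitosis medians were -3.72, -2.84 and -2.74. Birc5, survivin of the chromosomal passenger complex, had differences of -5.56, -3.76 and -3.65. Kif11, a spindle motor, was at least 20-fold lower (adjusted p = 1.39e-11) in Art:Nfkb2-labelled cells, where it was not detected after withdrawal, and had differences of -3.60 (adjusted p = 6.2e-10) in Art-labelled and -3.48 (adjusted p = 8.53e-10) in Rag-labelled cells. After withdrawal 16 of the 20 were lower in Art:Nfkb2-labelled than in Art-labelled cells and 0 higher, beside 4 lower and 2 higher of the 34 replication and nucleotide genes. The shares of all genes there were 2.21% lower and 1.78% higher. Whether the 2 lists differ was not tested.

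**Figure D5:**
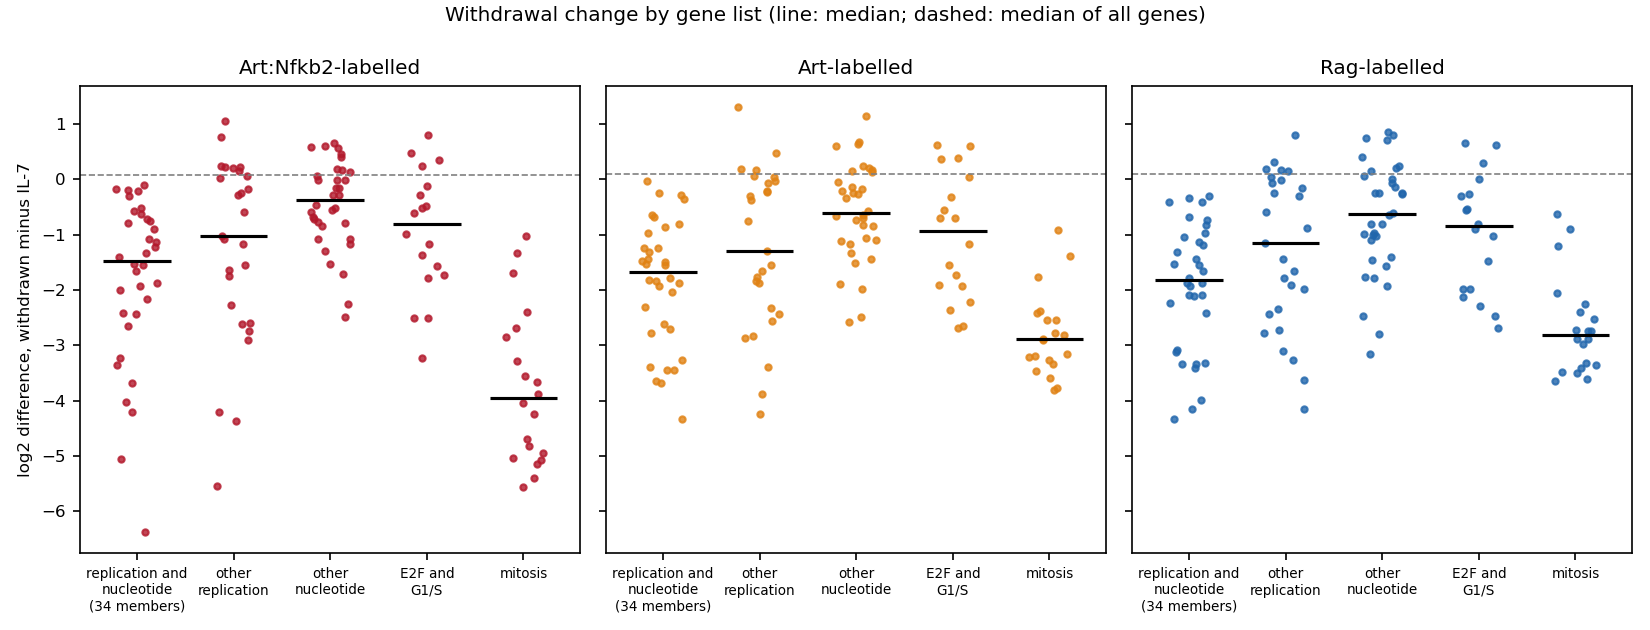
Log2 difference, withdrawn minus IL-7, of single genes (points) in 5 lists for each genotype, with the list's median (black line) and the median of all 8446 genes (dashed line). All points of the 34 genes and of the mitosis list lie below 0, while the other lists hold genes on both sides.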

How the data were processed

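RNA of 18 samples was measured on 1-colour Illumina MouseRef-8 arrays. The deposited table gives, per the file headers, a raw signal intensity and a detection p-value per probe, not normalized. Per the submitters' processing notes, GenomeStudio and Partek were used, and the steps behind the deposited series matrix intensity, used as an alternative only, are not stated in those sources. Group and replicate came from the titles, and 0 columns of sample values went unused.

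The deposited intensities were passed through neqc (limma 3.58.1, R 4.3.3), which corrects background, adds an offset of 16, equalises quantiles and takes log2, and so understates differences of dim genes. Of 25697 probes, 23978 had 1 symbol and 11356 passed the detection filter, giving 8446 genes, 673 of them named by probe ID. lmFit and eBayes fitted 6 group means over all arrays, and two-sided p-values received Benjamini-Hochberg adjustment over all genes in each of 12 comparisons, with no block. SE is the moderated standard error. For a gene detected on no array of its dim group, the fold is a bound against, per array, the higher of the lowest detected signal and its own. The number of arrays limits the precision, and the fit was tested on simulated data. Same-numbered arrays of a genotype deviated together (r of 0.374 to 0.588), so culture was also fitted as a block.

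The members and lists were chosen with earlier results of these data known. Arrays are given for the genes with the largest and smallest change of each role, those called between genotypes and those not called on withdrawal, and for other lists the largest falls and rises are named. Other scalings, offsets, filters, probe rules, the series matrix, a variance trend and leave-outs were run as alternatives. Dclre1c was not analysed here.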

Additional observations from a re-analysis of the deposited data

Results flagged for a closer look

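The withdrawal response of 2 genes differed between genotypes by a test of the difference itself. Tk1 was called in each pair, with log2 response differences of 1.92 for Art-labelled minus Rag-labelled cells (adjusted p = 0.00257), 1.38 for Art:Nfkb2-labelled minus Art-labelled cells (adjusted p = 0.0355) and 3.30 for Art:Nfkb2-labelled minus Rag-labelled cells (adjusted p = 7.69e-06), all from limma's moderated test. The Tk1 call for Art:Nfkb2-labelled minus Art-labelled cells was lost in each of 18 leave-outs. On withdrawal in Art-labelled cells the brightest Tk1 probe fell, while the dimmest, not detected in IL-7, was at least 1.81-fold higher. Mcm10 differed by -1.42 for Art:Nfkb2-labelled minus Art-labelled cells (adjusted p = 0.0355), a value that rests on arrays on which it was not detected. Its call was lost in 17 of 18 leave-outs and in 5 of 9 other settings.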

How the results depend on the processing

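Of 124 calls on single genes, 100 held under every other scaling, filter, probe rule and leave-out, among them 89 of 96 on withdrawal and 9 of 23 between genotypes after withdrawal, and 0 reversed. The withdrawal calls lost under some alternative were those of Gins4, Rfc1 and Rfc2 in Rag-labelled, Rfc2 in Art-labelled, and Prim2, Rpa1 and Rpa3 in Art:Nfkb2-labelled cells. The 3 withdrawal counts stayed within 1.5 times the reported ones. Genes called between Art-labelled and Rag-labelled cells after withdrawal were 3 with median scaling and 1 at 2-fold, in place of 6, and 2 to 7 in leave-outs. Between Art:Nfkb2-labelled and Art-labelled cells they were 3 to 6 in leave-outs, in place of 6, and against Rag-labelled cells 5 at 2-fold and 7 to 11 in leave-outs, in place of 11. In IL-7, Art:Nfkb2-labelled against Art-labelled cells gave 1 without background correction and 1 with an offset of 50, in place of 0, and against Rag-labelled cells 0 with no filter, a variance trend, culture as a replicate block or at 2-fold and 2 with the mean of probes, in place of 1. Both, and Art-labelled against Rag-labelled cells in IL-7, gave 0 to 1 in leave-outs. The response difference between Art:Nfkb2-labelled and Art-labelled cells gave 1 with median scaling, no background correction, an offset of 50 or the mean of probes, 0 with no filter, 4 with the block and 0 to 1 in leave-outs, in place of 2. Against Rag-labelled cells it gave 2 with a variance trend, 5 with the block and 1 to 3 in leave-outs, in place of 1. Apart from those given here and in the results, the block changed no call. Median scaling gave a share of higher calls over all genes of 45.2% in place of 56.2% for Art-labelled and 37.9% in place of 58.6% for Art:Nfkb2-labelled against Rag-labelled cells in IL-7, where it put the median of all genes at -0.12 in place of -0.01 for Art:Nfkb2-labelled cells. In the response differences of Art:Nfkb2-labelled cells the share was 33.3% in place of 50% against Art-labelled and 67.7% in place of 51.2% against Rag-labelled cells. Among other probes of the genes, an alternative added later, 45 of 65 values kept their call, 17 lost it and 3 had the opposite sign. These were Tk1 on withdrawal in Art-labelled cells, with a fitted 1.37 from a probe not detected in IL-7, and 2 values from probes not detected on either side, which give no direction, 0.24 for Tk1 in Rag-labelled cells and -0.025 for Tyms after withdrawal in Art-labelled against Rag-labelled cells. The causes were not tested. Signals near background limit Cdc6, Pole, Rrm2, Mcm10, Pclaf and Pcna.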
